A study of Mus musculus with 8 samples.

Results

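The 5 genes described here, Wnt3, Wnt6, Wnt7a, Wnt7b and Wnt9b, encode secreted Wnt ligands. They were chosen by name, as the Wnt ligand genes found among the 739 distinct genes in the authors' tables of genes changed in mutant limb buds. A list of all 19 mouse Wnt genes holds 14 others, which were not analysed here. The RNA came from limb buds of C57BL/6 mouse fetuses at E13.5. Sox9+/IRES-EGFP fetuses (WT) carried a green reporter behind 1 normal Sox9 allele. Sox9+/Y440X-IRES-EGFP fetuses (Y440X) carried the same reporter behind an allele with the Y440X mutation, and the other Sox9 allele was unmodified in both genotypes. Sox9 is the transcription factor that directs cartilage formation, and mutations of human SOX9 cause the skeletal disease campomelic dysplasia.

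Dissociated buds were sorted into GFP-positive cells, which express the reporter and so the Sox9 allele that carries it, and the remaining GFP-negative cells. Each of the 4 groups has 1 forelimb and 1 hindlimb library, and the submitters treat the limbs as biological replicates. A library holds the pooled buds of 4-6 pairs of limbs, and both fractions of a limb and genotype came from the same dissociation. P-values therefore measure the spread between 1 forelimb and 1 hindlimb pool per group. The sort reads a reporter inside Sox9, so the gate itself selects on the gene that is mutated.

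Wnt ligands are lipid-modified glycoproteins that bind Frizzled receptors and LRP co-receptors on nearby cells. In the canonical branch, binding stabilises beta-catenin, which then acts with TCF and LEF factors on target genes. In the limb bud the surface ectoderm is a classical source of Wnt ligands: Wnt3 is needed in mouse ectoderm to form the apical ectodermal ridge, and Wnt7a from dorsal ectoderm gives the limb its dorsal pattern. Wnt6 is also made by limb ectoderm, Wnt7b acts in epithelia and in bone formation, and Wnt9b is best known from kidney tubule induction and closure of the upper lip. Canonical signalling from the ectoderm restrains cartilage formation beneath it.

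All coordinates are GRCm38. Wnt6 lies at chr1:74771892-74785322 on the plus strand, 6194 bases from Wnt10a, and the antisense gene Gm29539 overlaps it. Wnt7a lies at chr6:91363981-91411363 on the minus strand. Wnt7b lies at chr15:85535437-85582473 on the minus strand, where the antisense gene AU022754 overlaps it. Reads of Wnt6 and Wnt7b are uncertain to the extent that counting without strand would include these antisense genes. Wnt3, at chr11:103774150-103817957 on the plus strand, and Wnt9b, at chr11:103727364-103749821 on the minus strand, are neighbours. They point away from each other, with 24329 bases between them.

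The upstream sequences of Wnt3, Wnt6, Wnt7a and Wnt9b are shown as description. These genes are in the tables as higher in Y440X, so their likeness across the libraries follows in part from that listing. Shared control was not tested. RefSeq promoter entries (GRCm38.p6) matched 4 of the 5 by symbol, and Wnt7b had none. Each is the stretch within 250 bases before the RefSeq start that holds no annotated exon, written 5′ to 3′ on the gene's own strand. The windows are chr11:103773925-103774149 (plus strand) for Wnt3, chr1:74771642-74771891 (plus) for Wnt6, chr6:91411364-91411512 (minus) for Wnt7a and chr11:103749822-103750071 (minus) for Wnt9b. Capitals mark matches of GCCNNNGGC, the AP-2 motif.
Wnt3: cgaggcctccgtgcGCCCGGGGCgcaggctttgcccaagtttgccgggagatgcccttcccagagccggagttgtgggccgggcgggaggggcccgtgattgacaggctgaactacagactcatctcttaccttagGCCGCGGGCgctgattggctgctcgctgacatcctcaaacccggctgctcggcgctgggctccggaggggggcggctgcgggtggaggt
Wnt6: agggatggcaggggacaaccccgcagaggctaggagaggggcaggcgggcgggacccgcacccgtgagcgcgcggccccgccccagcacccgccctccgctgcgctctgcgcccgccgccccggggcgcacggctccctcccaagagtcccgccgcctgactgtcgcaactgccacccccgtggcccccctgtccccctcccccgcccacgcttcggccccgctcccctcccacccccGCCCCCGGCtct
Wnt7a: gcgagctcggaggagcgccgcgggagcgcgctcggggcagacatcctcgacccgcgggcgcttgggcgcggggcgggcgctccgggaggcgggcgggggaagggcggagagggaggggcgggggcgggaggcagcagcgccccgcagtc
Wnt9b: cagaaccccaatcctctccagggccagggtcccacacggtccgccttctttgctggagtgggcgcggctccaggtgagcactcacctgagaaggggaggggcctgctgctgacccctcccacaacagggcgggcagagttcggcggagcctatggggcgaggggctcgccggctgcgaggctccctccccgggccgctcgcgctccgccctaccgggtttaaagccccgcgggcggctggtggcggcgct

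All 4 windows are rich in G and C. Over the full 250 bases, the GC content was 68% for Wnt3, 79.6% for Wnt6, 77.6% for Wnt7a and 72% for Wnt9b. The median was 52.4% over the 32851 windows of the table. For Wnt3 and Wnt7a the 250 bases include exon bases left out of the stretches shown, which hold 225 and 149 bases. Matches of the AP-2 motif, searched on both strands, began at positions -236 and -114 from the RefSeq start of Wnt3 and at position -12 from that of Wnt6. The RefSeq starts of Wnt3 and Wnt7a lie inside the genes as given above, so the stretches shown for these genes end short of that start. Such a match occurs in 13.7% of all windows, and windows so rich in G and C offer more chances for it. The other motifs searched on both strands were 2 SOX motifs, ACAAT (27.7% of all windows) and AACAATG (3.29%), which contains the first, the TCF/LEF motif ACAAAG (16.5%), the grainyhead motif AACCGGTT (0.116%) and the TATA motif TATAAA (12.4%). None of these letters occurs in the 4 windows shown, which says nothing of the factors' binding elsewhere.

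The libraries had effective sizes of 38581000 to 51097000 reads, so 1 CPM (count per 1000000 reads) corresponds to 38.58 to 51.1 reads. Sox9 itself, read from both alleles together, was at 925 and 1070 CPM in WT GFP-positive cells and at 475 and 560 CPM in Y440X GFP-positive cells. It was at 72.0 and 96.5 CPM in WT GFP-negative cells and at 17.8 and 21.9 CPM in Y440X GFP-negative cells. The label of the sorted cells was checked against 18 listed cartilage genes, whose summed level was 13210 to 57110 CPM in GFP-positive and 488.6 to 871.9 CPM in GFP-negative libraries. Endothelial, macrophage and skeletal muscle genes were each lower in the GFP-positive than in the GFP-negative libraries. In GFP-negative cells all of those in the tables (11 endothelial, 12 macrophage and 8 muscle genes) were called lower in Y440X, where 67.3% of all genes were. The endothelial sum there was 282 and 265 CPM in WT and 115 and 116 CPM in Y440X. The macrophage sum was 520 and 453 CPM in WT and 141 and 115 CPM in Y440X. The muscle sum was 124.5 and 127 CPM in WT and 58.2 and 48.2 CPM in Y440X. In GFP-positive cells 4 of 11 endothelial genes (Robo4, Cdh5, Emcn and Pecam1) were called higher, with a summed level of 14.8 and 15.1 CPM in WT and 20.1 and 23.1 CPM in Y440X. Of 12 macrophage genes there, 2 were called higher (C1qb and Pf4) and 2 lower, and their sum was 8.94 to 10.7 CPM in Y440X and 13.0 CPM in both WT libraries. Of 8 muscle genes in GFP-positive cells 6 were called lower and 0 higher. Of all genes in that fraction, 15.9% were called higher and 40.2% lower. The part of these cells in the ligand changes was not tested.

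The 5 ligand genes were all expressed at low levels, and all were higher in Y440X than in WT, in both sorted fractions. The sum over the 5 rose 6.00-fold in GFP-positive cells (95% counting interval 4.92 to 7.39) and 4.56-fold in GFP-negative cells (4.06 to 5.14). These intervals hold no spread between libraries: in GFP-positive cells the fold was 4.12 between forelimbs and 7.74 between hindlimbs, and 3.87 without the Y440X hindlimb library. Their summed level in GFP-positive cells was 1.30 CPM in the WT forelimb library and 1.46 CPM in the WT hindlimb library, against 5.34 and 11.3 CPM in Y440X. In GFP-negative cells it was 2.54 and 5.10 CPM in WT, against 13.4 and 21.4 CPM in Y440X. The lowest sums were thus in WT GFP-positive cells and the highest in Y440X GFP-negative cells. In bulk RNA, more cells of a type and more RNA per cell cannot be told apart.

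**Figure D1:**
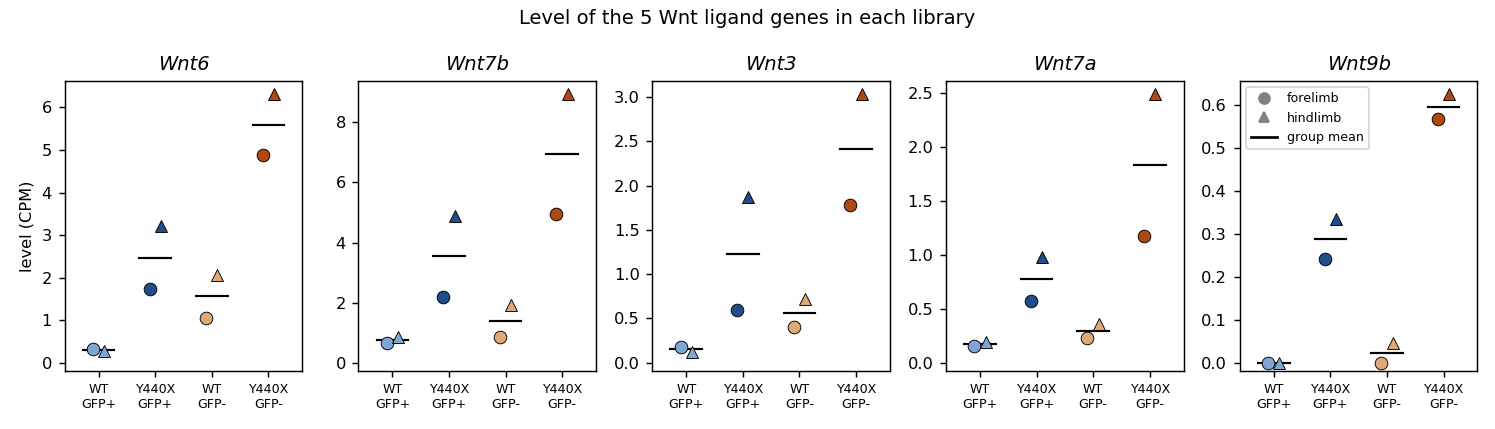
Level in CPM of each Wnt ligand gene (one panel per gene, each with its own linear axis) in the 8 libraries, with circles for forelimb, triangles for hindlimb and a bar for the mean of the pair. In every panel both Y440X libraries of a fraction lie above both WT libraries, and Wnt9b sits at 0 CPM in both WT GFP-positive libraries.

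In length-corrected terms Wnt6 was the most abundant of the 5 and Wnt9b the least. In Y440X GFP-negative cells the level of Wnt6 was 2.71 ± 0.495 RPKM (CPM per kilobase of gene length, SD, n = 2) and that of Wnt7b 1.58 ± 0.642 RPKM. Wnt3 followed at 0.773 ± 0.285 RPKM, Wnt7a at 0.578 ± 0.294 RPKM and Wnt9b at 0.132 ± 0.00879 RPKM. The levels of Wnt3 and Wnt7a overlapped between libraries, and all other neighbours in this order did not. The order was the same in 7 of the 8 libraries, and in the WT GFP-positive hindlimb library Wnt7b came before Wnt6 and Wnt7a before Wnt3, on 5 to 37 reads each. In that fraction of WT the means were 0.143 ± 0.00994 RPKM for Wnt6 and 0.172 ± 0.0355 RPKM for Wnt7b, whose ranges overlapped.

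The first comparison asked how the genotypes differ within GFP-positive cells. All 5 ligands were higher in Y440X, with no overlap between the genotypes. Over the 737 genes tested, 15.9% were called higher and 26.5% were higher without overlap, and the median log2 fold change was -0.47. The authors' deposited table lists Wnt3, Wnt6, Wnt7a and Wnt9b for this fraction on these same libraries, so their calls are not independent evidence. Wnt7b is not listed for it and came into the tables through the GFP-negative fraction.

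Wnt6 had 12 reads in each WT GFP-positive library and 79 (forelimb) and 144 (hindlimb) in Y440X. Both mutant libraries were far above the WT pair, and the log2 fold change was 3.05 ± 0.41 (SE, edgeR adjusted p = 2.02e-06). Wnt3, the ligand of the apical ridge pathway, had 7 and 5 reads in WT and 27 and 84 in Y440X. Its log2 fold change was 3.03 ± 0.60 (edgeR adjusted p = 7.76e-05), and the fold was 3.27 between the forelimbs but 15.9 between the hindlimbs. The counting intervals of these folds, 1.39 to 8.89 and 6.57 to 50.4, overlapped.

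Wnt7b had the most reads of the 5 in this fraction, 25 and 37 in WT and 100 and 219 in Y440X. It rose by 2.21 ± 0.36 on the log2 scale (edgeR adjusted p = 3.04e-05), and the authors' table does not list it here. The 2 cannot be set against each other, since the test here ran over only 737 genes already listed for a genotype change. The authors' own FDR (adjusted p) in this fraction was 0.0384 for Wnt3 and 0.0494 for Wnt7a, far larger than the edgeR values given here. Wnt7a, the dorsal ectoderm ligand, had 6 and 8 reads in WT and 26 and 44 in Y440X (log2 fold change 2.15 ± 0.51, edgeR adjusted p = 5.11e-04). The WT counts of Wnt3 and Wnt7a are so few that the size of the fold is loosely set. Wnt9b was not seen in WT, with 0 reads in both libraries, and had 11 and 15 reads in Y440X. A floor of 3 reads over the WT pair gives a fold of 7.78, and the 95% counting interval of the ratio starts at 5.89 (edgeR adjusted p = 2.27e-04).

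The GFP-positive calls depended on single WT libraries. Without the WT GFP-positive forelimb library 2 of the 5 remained called, Wnt6 and Wnt9b, and Wnt3, Wnt7a and Wnt7b each had an edgeR adjusted p of 0.05457 with log2 fold changes of 2.03 for Wnt7a and 2.02 for Wnt7b and a larger one for Wnt3 than with all 4 libraries. Without the WT hindlimb library Wnt3 alone lost its call (edgeR adjusted p = 0.06559, log2 fold change 2.74). Without the Y440X hindlimb library the log2 fold change was 1.98 for Wnt3 and 1.52 for Wnt7b, and without the Y440X forelimb library it was 3.63 for Wnt3.

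The second comparison asked the same of GFP-negative cells, which lack reporter signal. All 5 ligands were again higher in Y440X without overlap, against 12.7% of 739 genes called higher, 17.2% higher without overlap, and a median log2 fold change of -1.15. All 5 are listed for this fraction in the authors' deposited table, on the same libraries. Wnt7b had 40 and 85 reads in WT and 253 and 431 in Y440X, a log2 fold change of 2.34 ± 0.42 (edgeR adjusted p = 0.00158). Wnt6 had 50 and 92 reads in WT and 249 and 304 in Y440X (1.84 ± 0.34 log2, edgeR adjusted p = 0.00171). These 2 genes gave most of the ligand reads in every library, 71.3% to 79.0% of the total.

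Wnt3 had 19 and 32 reads in WT and 91 and 146 in Y440X, with a log2 fold change of 2.10 ± 0.40 (edgeR adjusted p = 0.00182). The fold of Wnt3 was alike in the limbs here, 4.43 in forelimb and 4.22 in hindlimb. Wnt7a had 11 and 16 reads in WT and 60 and 120 in Y440X (2.62 ± 0.48 log2, edgeR adjusted p = 0.00134). Wnt9b had 0 and 2 reads in WT and 29 and 30 in Y440X. That is 59 reads against 2, a ratio of 27.3 with a counting interval of 7.22 to 231 (edgeR adjusted p = 6.67e-04). All 5 calls held when any 1 of the 4 GFP-negative libraries was left out, but sizes moved. The log2 fold change of Wnt7b was 3.03 without the WT hindlimb library, and without the Y440X hindlimb library that of Wnt7a was 1.98. Wnt9b has no reads in WT once the WT hindlimb library is left out.

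**Figure D2:**
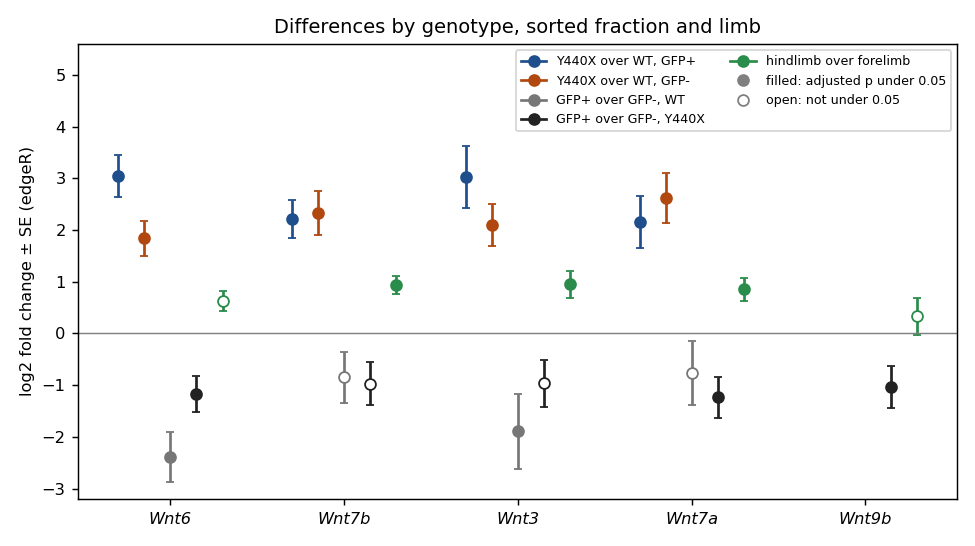
Log2 fold changes ± SE from edgeR for each ligand (x axis) in 5 comparisons (colours), with filled points where the adjusted p is under 0.05. The genotype changes lie between 1.84 and 3.05 and the fraction changes lie below 0. Wnt9b is left out of the genotype comparisons and of the fraction comparison in WT because its WT libraries hold 0 to 2 reads. Its limb point comes from a fit that includes those libraries.

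Whether the change with genotype differed between the fractions was tested as an interaction. It was called for 0 of the 5 ligands by edgeR, where 49.9% of all genes were called, and 0 had an unadjusted p under 0.05. The nearest was Wnt6, whose change was larger in GFP-positive cells by 1.21 ± 0.59 on the log2 scale (edgeR adjusted p = 0.0989). With a replicate block for limb, Wnt6 passed (1.14, edgeR adjusted p = 0.0393). Limma on log2(CPM + 0.5) called 1 as well, Wnt9b, in the opposite direction (-0.42, adjusted p = 0.0286), and DESeq2 called 0. The differences for Wnt3, Wnt7a and Wnt7b were 0.93 ± 0.86, -0.47 ± 0.73 and -0.12 ± 0.65, so differences of 1 log2 unit or more lie within about 2 SE. All ligands but Wnt7b were listed by the authors in both fractions, as were only 74 of the 739 genes. A listing in 1 fraction alone favours a difference between the fractions. The count of 0 against 49.9% is therefore partly set by the listing and is no evidence that the ligands are unusually alike.

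The third comparison asked where in the sort the ligands are found. The authors' tables do not choose genes by this contrast. In WT, Wnt6 and Wnt3 were lower in GFP-positive than in GFP-negative cells, as were 49.8% of the 739 genes, whose median was -0.82, so 2 of 5 is near the share of all genes. Wnt6 differed by -2.39 ± 0.48 (edgeR adjusted p = 2.92e-04) and Wnt3 by -1.89 ± 0.73 (edgeR adjusted p = 0.0204) on the log2 scale. Wnt3 lost this call without either WT GFP-positive library or without the WT GFP-negative hindlimb library (edgeR adjusted p = 0.0581, 0.130 and 0.124), and under TMM scaling, edgeR's trimmed-mean scaling over the listed genes (0.0528). Wnt7a (-0.77 ± 0.62) and Wnt7b (-0.85 ± 0.50) did not pass, with edgeR adjusted p of 0.258 and 0.131, and Wnt9b was at or near 0 reads in both fractions. With a replicate block for each suspension (limb within genotype) Wnt7b passed too (-0.81, edgeR adjusted p = 0.0240).

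In Y440X, 3 of the 5 were lower in GFP-positive cells, against 39.2% of all genes and a median of -0.24. They were Wnt6 (-1.18 ± 0.35, edgeR adjusted p = 0.00886), Wnt7a (-1.24 ± 0.40, edgeR adjusted p = 0.0134) and Wnt9b (-1.04 ± 0.41, edgeR adjusted p = 0.0348). Wnt3 (-0.96 ± 0.45) and Wnt7b (-0.97 ± 0.42) had edgeR adjusted p of 0.0734 and 0.0526. With the replicate block for each suspension all 5 passed, with edgeR adjusted p of 2.73e-04 to 0.0166. Without the Y440X GFP-positive forelimb library, or without the Y440X GFP-negative hindlimb library, 0 of the 5 passed in edgeR, with an unadjusted p under 0.05 for 0 and 1 of them. Wnt9b also lost its call without either of the other Y440X libraries (edgeR adjusted p = 0.0501 and 0.0640) and in DESeq2 (adjusted p = 0.265).

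Across genotypes the Y440X GFP-positive cells reached or passed the level of WT GFP-negative cells. The summed level was 2.10-fold higher between the forelimb libraries (95% counting interval 1.68 to 2.63) and 2.21-fold higher between the hindlimb libraries (1.89 to 2.60). These ratios were chosen after the values were seen and have no test across libraries.

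Forelimb and hindlimb serve as replicates in the study, so a difference between them adds to the spread of every test above. Wnt7b, Wnt3 and Wnt7a were called higher in hindlimb over the 4 groups, where 0.812% of the 739 genes, 6 in all, were called higher. Wnt7b differed by 0.94 ± 0.18 on the log2 scale (edgeR adjusted p = 0.0137) and was higher in hindlimb in 4 of 4 groups, with folds of 1.34, 2.22, 2.25 and 1.81. Wnt7a differed by 0.85 ± 0.23 (edgeR adjusted p = 0.0464), higher in 4 of 4 groups. Wnt3 differed by 0.95 ± 0.26 (edgeR adjusted p = 0.0471) and was higher in 3 of 4, the exception being WT GFP-positive cells with 7 and 5 reads. Over all genes, 5.68% were higher in hindlimb in 4 of 4 groups.

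Wnt6 (0.63 ± 0.20, edgeR adjusted p = 0.0866) and Wnt9b (0.33 ± 0.35, edgeR adjusted p = 0.617) did not pass. The 8 libraries come from 4 pools, which both fractions share, so these p-values are too small. With both fractions summed per pool (4 pools, genotype plus limb, an analysis added after the data were seen), 4 of the 5 were called, Wnt6 too. Of all 739 genes that fit called 26 higher and 133 lower, where the main fit called 6 higher and 32 lower, so it calls more freely. The log2 differences were 0.92 for Wnt7b, 0.87 for Wnt3, 0.86 for Wnt7a, 0.59 for Wnt6 and 0.31 for Wnt9b (edgeR adjusted p = 4.23e-05, 0.00216, 0.00576, 0.0167 and 0.614). That fit leaves 1 residual degree of freedom. The limb calls were not stable over other choices. TMM scaling kept Wnt7b, Wnt3 and Wnt7a and called Wnt6 too (0.72, edgeR adjusted p = 0.0424). DESeq2 called 1 of the 5, Wnt7b, the GFP-positive libraries alone gave 2, Wnt3 and Wnt7b, and the GFP-negative libraries alone gave 0 in edgeR, with 4 at an unadjusted p under 0.05. Leaving out either Y440X GFP-positive library or either WT GFP-negative library also left 0 called in edgeR, with 3 to 4 at an unadjusted p under 0.05, and Wnt7a lost its call without either Y440X GFP-negative library (edgeR adjusted p = 0.309 and 0.290).

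**Figure D3:**
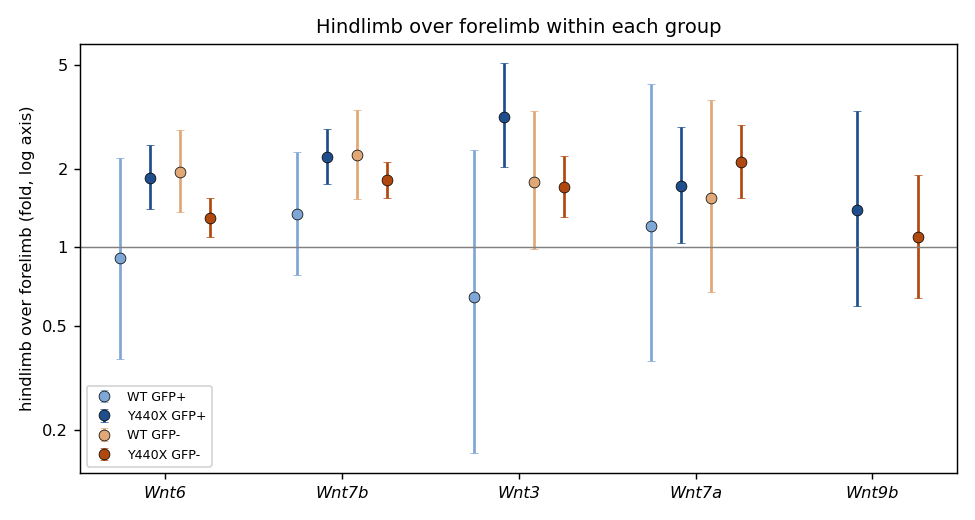
Hindlimb over forelimb fold of each ligand within each of the 4 groups (log axis), with 95% counting intervals that hold no spread between pools. The 4 folds of Wnt7b lie between 1.34 and 2.25, and Wnt3 ranges from 0.648 to 3.16. Wnt9b is shown for the Y440X groups, since its WT libraries hold 0 to 2 reads.

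Most listed markers of the surface epithelium, a cell type known to make these ligands, rose with them between the genotypes. Of a list of 40 such markers 14 are in the tables, none at 0 reads in any library. These 14 are there because the authors listed them as changed by genotype on these libraries. Their calls by genotype are therefore no independent evidence of an epithelial rise, and the rest of the list was not seen. Their summed level in GFP-positive cells was 36.2 and 39.4 CPM in WT and 69.8 and 97.5 CPM in Y440X. In GFP-negative cells it was 55.8 and 58.1 CPM in WT and 122 and 146 CPM in Y440X. Between the fractions, 9 of the 14 were called lower and 3 higher in WT GFP-positive cells (median log2 difference -1.15). In Y440X 6 were lower and 3 higher (-0.75). Of all 739 genes 368 were lower and 223 higher in WT, and 290 and 215 in Y440X. Grhl1, Grhl2 and Krt17, named after their values were seen, were the 3 higher in both genotypes, unlike any ligand. Under TMM scaling Grhl1 lost this call in Y440X (edgeR adjusted p = 0.199). The part of epithelial cell number in the ligand changes was not tested.

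Within GFP-positive cells 13 of the 14 epithelial markers were called higher in Y440X and 1 lower (1.61 was the list's median log2 fold change), where 15.9% of all genes were called higher and 40.2% lower. Within GFP-negative cells 10 were called higher and 1 lower, with a median of 1.44, where 12.7% of all genes were called higher and 67.3% lower. The one lower in both, named after its values were seen, was Grhl1, a grainyhead factor, at 11.2 and 13.7 CPM in WT and 4.65 and 4.53 CPM in Y440X GFP-positive cells; under TMM scaling over the listed genes its GFP-negative change was -0.04 (edgeR adjusted p = 0.885). The basal keratin Krt5 (2.29 ± 0.29 and 1.65 ± 0.19 log2 in GFP-positive and GFP-negative cells, edgeR adjusted p = 2.68e-06 and 3.38e-04) and its partner Krt14 (2.47 ± 0.29 and 1.90 ± 0.23, edgeR adjusted p = 1.01e-06 and 4.79e-04) were among the 5 epithelial examples of highest mean level. So were Dsp (1.67 ± 0.28 and 1.49 ± 0.19, edgeR adjusted p = 4.18e-05 and 5.43e-04) and Col17a1 (1.21 ± 0.30 and 1.75 ± 0.27, edgeR adjusted p = 0.00133 and 9.63e-04). Epcam, an epithelial adhesion protein, rose by 1.39 ± 0.24 in GFP-positive cells (edgeR adjusted p = 7.78e-05) and was 0.23 ± 0.18 in GFP-negative cells (edgeR adjusted p = 0.281; 1.30 under TMM, adjusted p = 3.96e-04).

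The ligand sum rose 6.00-fold and 4.56-fold in the fractions, where the epithelial sum rose 2.21-fold and 2.34-fold, and 3.11-fold and 2.58-fold without Grhl1. As a share of it, the ligands stood at 3.58% and 3.70% in WT GFP-positive libraries and at 7.65% and 11.6% in Y440X. In GFP-negative libraries they stood at 4.55% and 8.78% in WT and at 11.0% and 14.7% in Y440X. The genotypes did not overlap in either fraction. Both sums hold only genes listed for a genotype change, the ligands all as higher, so their gap depends on which genes entered each sum. Without Grhl1 the shares were 5.19% and 5.67% in WT and 8.19% and 12.1% in Y440X GFP-positive libraries, and 5.17% and 9.76% in WT and 11.2% and 15% in Y440X GFP-negative libraries. Against Krt5 and Krt14 alone, chosen after their values were seen, the shares lay closer. They were 24.9% and 28.8% in WT and 29.7% and 32.7% in Y440X GFP-positive cells, and in GFP-negative cells 15.2% and 27.8% in WT and 25.8% and 32.6% in Y440X, where they overlapped.

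**Figure D4:**
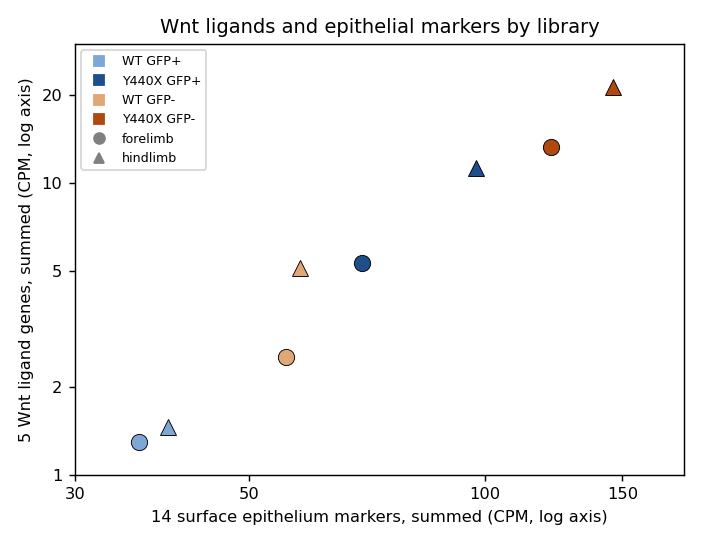
Summed level of the 5 ligands against the summed level of the 14 listed epithelial markers in each of the 8 libraries, both in CPM on log axes, with colours for groups, circles for forelimb and triangles for hindlimb. The points run from 1.30 against 36.2 CPM in the WT GFP-positive forelimb library to 21.4 against 146 CPM in the Y440X GFP-negative hindlimb library.

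Over the 8 libraries, the listed genes whose pattern was most like the ligand sum were also epithelial genes. Among 538 genes with a mean of at least 1 CPM they were Trim29 (Pearson's r = 0.989), the splicing factor Esrp1 (0.988), Krt14 (0.985), the desmosome protein Dsp (0.975) and the hemidesmosome collagen Col17a1 (0.974). These are descriptions over 8 libraries that share 4 pools and the genotype difference by which all were listed. By gene, Wnt6 was most like Krt14 (0.997), then Esrp1 and Dsp. Wnt3 was most like Trim29 (0.988), then the epithelial cadherin Cdh1 and Esrp1, and Wnt7b most like Trim29 (0.980), Col17a1 and the gap junction gene Gjb2. Wnt7a was most like Gjb2 (0.983), Gjb6 and Col17a1. Wnt9b differed in its first neighbours, Ankrd9 (0.979) and the heat shock gene Hspa1b (0.973), followed by Gjb2.

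Among the ligands the pattern of Wnt3 was most like that of Wnt7b (0.980) and that of Wnt6 least like that of Wnt9b (0.909). The neighbours Wnt3 and Wnt9b had an r of 0.923.

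Of 13 listed markers of the apical ectodermal ridge 2 are in the tables, and the rest were not seen. The authors listed Dlx3 for GFP-positive and Fgf17 for GFP-negative cells, so their directions there are no independent evidence. Neither was called higher in Y440X, where 15.9% (GFP-positive) and 12.7% (GFP-negative) of all genes were. Dlx3, a homeobox gene of ridge and epidermis, fell by 2.42 ± 0.25 on the log2 scale in GFP-positive cells (edgeR adjusted p = 2.14e-07), from 26.7 and 34.8 CPM to at most 6.11 CPM. It was -0.41 ± 0.32 in GFP-negative cells (edgeR adjusted p = 0.264). Fgf17, a growth factor, was -0.49 ± 0.32 in GFP-positive cells (edgeR adjusted p = 0.202) and fell by 1.48 ± 0.41 in GFP-negative cells (edgeR adjusted p = 0.00833). TMM scaling turned Dlx3 in GFP-negative cells to 0.67 and Fgf17 in GFP-positive cells to 0.18, and left Fgf17 in GFP-negative cells at -0.40 (adjusted p = 0.458). Unlike the ligands, Dlx3 was higher in GFP-positive than in GFP-negative cells of WT (2.08 ± 0.28, edgeR adjusted p = 1.53e-05). In Y440X it was 0.07 ± 0.29 (edgeR adjusted p = 0.843). Fgf17 was 0.52 ± 0.35 in WT (edgeR adjusted p = 0.182) and 1.51 ± 0.40 in Y440X (edgeR adjusted p = 0.00367). Which cells hold these 2 transcripts was not tested.

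Other genes of the pathway did not move as 1 group. Of 19 receptor genes on the list 2 are in the tables, and both are Frizzled genes that were higher in GFP-positive cells of either genotype. Fzd9 fell in Y440X GFP-positive cells, from 182 and 105 CPM to 37.5 and 22.3 CPM (log2 fold change -2.26 ± 0.29, edgeR adjusted p = 2.68e-06). In GFP-negative cells it was at 1.31 to 2.78 CPM (-0.72 ± 0.29, edgeR adjusted p = 0.0435). Fzd4 fell in GFP-negative cells, from 83.5 and 73.4 CPM to 34.7 and 32.6 CPM (-1.22 ± 0.15, edgeR adjusted p = 4.93e-04), and was 0.21 ± 0.24 in GFP-positive cells (edgeR adjusted p = 0.485). Under TMM scaling the GFP-negative changes were 0.35 for Fzd9 and -0.14 for Fzd4 (edgeR adjusted p = 0.301 and 0.412), and Fzd4 was higher in GFP-positive cells (0.87, adjusted p = 8.97e-04).

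Of 28 genes for ligand processing and secreted modulators 3 are in the tables. Rnf43, a ubiquitin ligase that removes Frizzled from the cell surface, rose in both fractions. Its level was 0.363 and 0.446 CPM in WT and 0.856 and 1.49 CPM in Y440X GFP-positive cells (1.53 ± 0.40 log2, edgeR adjusted p = 0.00182), and its log2 fold change in GFP-negative cells was 1.40 ± 0.26 (edgeR adjusted p = 0.00160). Kremen2, a receptor for the Wnt inhibitor Dkk1, rose by 1.12 ± 0.31 and 0.93 ± 0.21 in GFP-positive and GFP-negative cells (edgeR adjusted p = 0.00349 and 0.00402). Rspo1, a secreted amplifier of Wnt signalling, rose in GFP-negative cells from 7.63 and 7.48 CPM to 29.5 and 15.7 CPM (1.58 ± 0.29, edgeR adjusted p = 0.00158) and was at 0.363 to 0.587 CPM in GFP-positive cells of both genotypes.

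Of 17 effector and target genes 1 is in the tables. Lef1, a DNA-binding partner of beta-catenin, was at 37.1 and 54.8 CPM in WT and 22.4 and 22.1 CPM in Y440X GFP-positive cells. It fell by 1.05 ± 0.25 on the log2 scale (edgeR adjusted p = 9.72e-04), while in GFP-negative cells the change was 0.33 ± 0.15 (edgeR adjusted p = 0.0764). Under TMM scaling these were -0.39 and 1.40 (edgeR adjusted p = 0.168 and 3.36e-04). The changes of Lef1 differed between the fractions by -1.38 ± 0.31 (edgeR adjusted p = 0.00329). The pathway and marker genes seen here were all listed by the authors as changed on these libraries. Their counts are no independent evidence of direction between the genotypes.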

How the data were processed

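RNA-seq had been made from stranded poly(A)-selected libraries of sorted limb bud cells, per the labels' protocols. Per the submitters' processing notes, the tools included edgeR 3.36.0 and featureCounts, and mm10 and GRCm38 are named as builds. Neither the aligner nor the strand setting of the counting is given in the sources used here. Deposited were tables of genes the authors called higher or lower in Y440X, with read counts for each library, although the file headers call these columns RPKM: 100.0% of the values were whole numbers. The authors' comparison columns hold log2 fold changes and a log2 mean level, an F statistic (a score), a p-value and an FDR, its form adjusted for multiple testing, per the file headers. A gene length in bases is another column, deposited as such per the file headers. The planned count test applied to these values.

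Effective library sizes were solved from the deposited log2 columns and 165 genes with at least 200 counts in every library. They returned the authors' log2 fold changes with a largest residual of 0.0012. CPM are reads per 1000000 reads of these sizes, and RPKM are CPM per kilobase of the deposited length. The main test was edgeR 4.0.16 (R 4.3.3), quasi-likelihood, without further scaling, two-sided, with Benjamini-Hochberg adjustment over all genes tested. All of these had been listed for a genotype change, so adjusted p-values here are not comparable with those over all expressed genes. Genotypes were compared within a fraction, and fractions and their interaction in 1 fit of the 8 libraries. The limbs were compared with the 4 groups as covariate. Standard errors are Wald errors, and calls are adjusted p under 0.05. The script was tested on simulated data. Alternatives were TMM scaling, a filter of 10 reads in 2 libraries, DESeq2 1.42.0, limma 3.58.1 on log2(CPM + 0.5) or log2(CPM + 0.1), a replicate block (limb within genotype for the fraction comparisons, limb for the genotype comparisons and the interaction), leaving out each library, all 8 libraries in 1 fit, and, for the limb comparison, each fraction alone and, added after the data were seen, both fractions summed per pool. Both fractions of a limb and genotype came from 1 suspension, so the fraction comparisons are paired by design. Their hindlimb minus forelimb deviations, over 541 genes with a mean of at least 1 CPM, correlated at 0.14 in WT and 0.22 in Y440X.

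The members and gene lists were chosen with earlier results of these data known. The genes named are the 5 ligands, every other listed gene of the Wnt lists, up to 5 epithelial examples by mean CPM, and the genes of most similar pattern (Pearson's r on log2(CPM + 0.5)). Keratin ratios, promoter windows and sequence motifs were chosen after values were seen. Exact 95% intervals of ratios of reads and the floor of 3 reads cover counting error only. There were 0 sample columns left unused.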

Additional observations from a re-analysis of the deposited data

How the results depend on the processing

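Both genotype comparisons kept all 5 calls under TMM scaling over the listed genes, DESeq2, the count filter, all 8 libraries in 1 fit, limma with either pseudocount and the replicate block. The genotype comparisons share only a limb number, whose deviations correlated across 541 genes at 0.45 (GFP-positive) and 0.48 (GFP-negative). Leaving out 1 library gave 2 to 5 calls in GFP-positive cells and 5 in the GFP-negative sort. GFP-positive over GFP-negative in WT gave 1 call under TMM, 1 in limma (0.5) and 1 to 3 with a library left out. In Y440X it gave 5 under TMM, 5 with the replicate block and 0 to 4 with a library left out. The interaction gave 1 call with the replicate block, 1 in limma (0.5) and 0 to 1 with a library left out. Hindlimb over forelimb gave 1 call in DESeq2, 0 in the GFP-negative libraries alone and 0 to 4 with a library left out. TMM scaling called Wnt6 there besides Wnt7b, Wnt3 and Wnt7a. Summing both fractions per pool, added after the data were seen, gave 4. A replicate block could not be added to it, since the limb is both the replicate number and the term tested; its fit already compares limbs within each group.

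Signs turned in the interaction alone, where no value was called in the main test: Wnt3 to -0.12 and Wnt9b to -0.42 in limma (0.5), and with a library left out, where Wnt3 ranged from -0.12 to 1.53, Wnt7a from -0.92 to 0.17, Wnt7b from -0.82 to 0.36 and Wnt9b from -1.04 to 3.06. The cause was not tested. TMM moved the median log2 fold change of all genes from -0.47 to 0.19 (GFP-positive) and from -1.15 to -0.07 (GFP-negative). Of all genes called, 28.3% and 15.9% were higher in Y440X, and 57.9% and 63.6% under TMM. Fits with 1 library in a group assume that it varies like the others. Counts of 0 to 37 reads in WT GFP-positive cells limit the sizes of the folds.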
